A study of Homo sapiens with 18 samples.

Results

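The keratin genes were the rows of the expression table whose symbol was KRT, a number and at most one letter A to C. There were 55 of them among 58302 genes, 29 of type I and 26 of type II. RNA sequencing covered TPC1 cells, a line from a human papillary thyroid carcinoma with the wild-type Dicer1 gene, and D11 cells, a single Dicer1 (+/-) clone made from TPC1 with CRISPR-Cas9. Cells of each line were left without transfection (NT) or received 5 nM of either a negative control siRNA (NC) or a siRNA against Dicer1 (siDicer), and RNA was taken on day 4. Each of the 6 groups held 3 libraries. A line's NT and NC libraries served together as its control group of 6, and 18 libraries entered in total.

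Keratins are the intermediate filament proteins of epithelial cells. A filament is built from pairs of 1 acidic type I and 1 basic type II chain, and a cell type is known by which pairs it makes: KRT8 with KRT18 in simple epithelia, KRT5 with KRT14 in the basal layer of the epidermis, KRT1 with KRT10 above it, and the hair keratins in the hair shaft and nail. Dicer1 is the RNase that cuts microRNAs from their precursors, and microRNAs lower the stability and translation of the mRNAs they pair with.

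Values are normalised read counts per 20 M reads. Libraries held 11.3 to 23.2 M reads, so that 1 read was worth 0.861 to 1.77 of these units and low keratins rested on a handful of reads. A keratin was taken as measured with a mean of at least 10 over the 18 libraries, which 12 of the 55 reached, 6 of type I (KRT18, KRT15, KRT10, KRT222, KRT34 and KRT33B) and 6 of type II (KRT8, KRT80, KRT81, KRT7, KRT86 and KRT79). The other 43 were not measured, and 10 of them were at 0 in all 18 libraries. DICER1 followed the sample descriptions: in TPC1 it was 1582, 1510 and 1397 (NT), 2492, 1901 and 2366 (NC) and 255, 395 and 246 (siDicer). The D11 values were 655, 1157 and 923 (NT), 1536, 1433 and 1407 (NC) and 297, 451 and 277 (siDicer). The siDicer libraries of each line lay below all of its controls (log2 change -2.64 with SE 0.21 and limma adjusted p = 0.000337 in TPC1, -1.77 with SE 0.25 and limma adjusted p = 0.000649 in D11). Titles and descriptions named different groups for 12 of the 18 samples, and the descriptions were used. With groups from the titles no keratin was called with siDicer in either line.

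Of markers of the labelled tissue, the thyroid factor PAX8 averaged 9806, FOXE1 121 and the hormone precursor TG 73.7, while 7 of the 10 thyroid markers, among them TSHR, SLC5A5 and NKX2-1, averaged under 10. Of 7 epithelial markers, KRT8, KRT18 and ESRP2 averaged at least 10, and EPCAM, CDH1, CLDN7 and ESRP1 did not. None of 7 leukocyte and 4 endothelial markers averaged 10. Of 8 fibroblast markers 4 averaged at least 10, and DCN was at 0 in every library. The summed fibroblast markers were 409 to 824 in TPC1 siDicer against 232 to 322 in its controls, and 186 to 285 in D11 siDicer against 88 to 178 in its controls. Of the measured fibroblast markers, named after their values were seen, LUM (273 to 517 against 89 to 157) and PDGFRB were called higher in TPC1 siDicer and PDGFRB in D11 siDicer. PDGFRB was 137, 30 and 167 in TPC1 siDicer against 12 to 46 in control, which overlapped (limma adjusted p = 0.0493). In D11 it was 62 to 112 against 17 to 42. THY1 had a lower mean in siDicer than in control of both lines, 24.0 against 39.3 in TPC1 and 29.0 against 38.5 in D11. The part of these marker differences in the keratin results was not tested. A change in the number of cells with these mRNAs cannot be told apart from a change in RNA per cell in these bulk libraries.

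The keratins lay in a pair of gene clusters on GRCh38 (GENCODE release 44). On chromosome 17, 28 type I genes lay between positions 40654665 and 41624842. On chromosome 12, 26 type II genes lay between positions 52168996 and 52949954, with the type I gene KRT18 (52948871 to 52952906) at the edge next to KRT8 (52897187 to 52949954). Some neighbours are close copies, and 2 stretches of coding sequence are shown here because identical letters decide to which gene a read could be assigned. The hair keratins KRT81 and KRT86 share 605 identical coding bases in a row, of which the first 200 are in the first coding exon of each, at chr12:52291206-52291405 (minus strand) for KRT81 and chr12:52301977-52302176 (plus strand) for KRT86.
KRT81 and KRT86: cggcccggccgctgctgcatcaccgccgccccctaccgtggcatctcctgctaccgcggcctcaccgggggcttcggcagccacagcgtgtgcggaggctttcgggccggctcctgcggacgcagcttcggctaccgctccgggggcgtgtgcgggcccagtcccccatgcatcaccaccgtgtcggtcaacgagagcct
The hair keratins KRT33B and KRT34 share at most 113 coding bases in a row, in one exon each, at chr17:41369494-41369606 and chr17:41381990-41382102 on the minus strand.
KRT33B and KRT34: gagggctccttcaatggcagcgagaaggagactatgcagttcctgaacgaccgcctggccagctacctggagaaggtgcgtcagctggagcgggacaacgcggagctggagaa
Of all 100-base windows of the main transcript, 30.3% for KRT81, 27.6% for KRT86, 35.0% for KRT222, 7.12% for KRT8, 5.54% for KRT33B and 0.912% for KRT34 were found in another gene, and none for KRT18, KRT80, KRT15, KRT10, KRT7 and KRT79. The values of KRT81, KRT86 and KRT222 therefore depended on how shared reads were assigned, which is not given in the sources used here. Most shared windows of KRT33B, 62 of 84, were in KRT33A, which was at 0 to 2 in the 18 libraries. The 14 shared windows of KRT34 were in KRT33B.

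RefSeq promoter windows were at hand for 5 of the 12 measured keratins, KRT8, KRT10, KRT33B, KRT34 and KRT79. The 250 bases before the gene start are shown for KRT33B, which fell with siDicer in both lines, for KRT34, its neighbour with the shared stretch above, and for KRT79, which rose with siDicer in D11. All are on the minus strand of GRCh38.p14, at chr17:41369814-41370063, chr17:41382307-41382556 and chr12:52834312-52834561, and capitals mark TATAAA and CCAAT.
KRT33B: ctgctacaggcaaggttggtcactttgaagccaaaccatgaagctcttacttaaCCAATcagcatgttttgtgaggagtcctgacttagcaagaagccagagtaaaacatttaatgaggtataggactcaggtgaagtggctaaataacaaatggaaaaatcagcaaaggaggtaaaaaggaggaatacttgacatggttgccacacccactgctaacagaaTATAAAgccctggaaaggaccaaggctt
KRT34: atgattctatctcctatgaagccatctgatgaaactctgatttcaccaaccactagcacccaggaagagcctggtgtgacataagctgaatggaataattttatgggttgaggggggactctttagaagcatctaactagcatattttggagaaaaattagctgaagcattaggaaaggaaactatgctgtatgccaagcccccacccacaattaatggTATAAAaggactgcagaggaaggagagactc
KRT79: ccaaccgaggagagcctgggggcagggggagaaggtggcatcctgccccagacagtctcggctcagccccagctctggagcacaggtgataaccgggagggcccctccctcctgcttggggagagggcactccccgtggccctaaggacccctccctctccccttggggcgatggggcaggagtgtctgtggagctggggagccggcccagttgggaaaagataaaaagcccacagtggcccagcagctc
TATAAA began 28 bases before the start in KRT33B, 31 in KRT34 and 29 in KRT10, and was not among the letters of the KRT79 and KRT8 windows. The KRT8 window, at chr12:52926420-52926719 on the minus strand, lay inside the KRT8 gene (52897187 to 52949954) and not at its end. Which KRT8 start was used in these cells was not tested. On both strands, TATAAA was in 11.95% and CCAAT in 35.7% of 27305 RefSeq promoter windows of 300 bases. An AP-1 motif (TGANTCA, found in 7.76% of all windows), a GC box (GGGCGG, in 44.6%) and an E-box (CACGTG, in 7.44%) were searched in the same way and were in none of the 5 keratin windows.

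Keratin mRNA in both lines was mostly KRT8 and KRT18, the pair of simple epithelia. All 55 keratins together summed to 12655 to 24938 per library, or 0.0632% to 0.125% of the reads, and KRT8 with KRT18 made up 68.1% to 80.8% of that sum. The lowest sum and the lowest share were both in TPC1 NT replicate 2.

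Per kb of the main transcript, the scale on which genes can be compared, KRT8 ranged from 3204 to 7613 over the 18 libraries with a median of 5510, and KRT18 from 2058 to 4645 with a median of 3287. KRT15, a type I keratin of basal cells, came next with a median of 966 per kb, then KRT80, a type II keratin of many epithelia, with 485 per kb. The hair keratin KRT81 (267 per kb), the simple-epithelial KRT7 (164) and the suprabasal KRT10 (161) followed, and their ranges over the control libraries overlapped in each line. The remaining 5, KRT86, KRT79, KRT33B, KRT34 and KRT222, had medians of 4.25 to 11.8 per kb. In the control libraries of TPC1, ranges did not overlap between KRT18 and KRT15, between KRT15 and KRT80, and between KRT7 and KRT222. In those of D11 they did not overlap between KRT8 and KRT18, between KRT18 and KRT15, and between KRT7 and KRT33B. All other neighbours in the order overlapped.

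**Figure D1:**
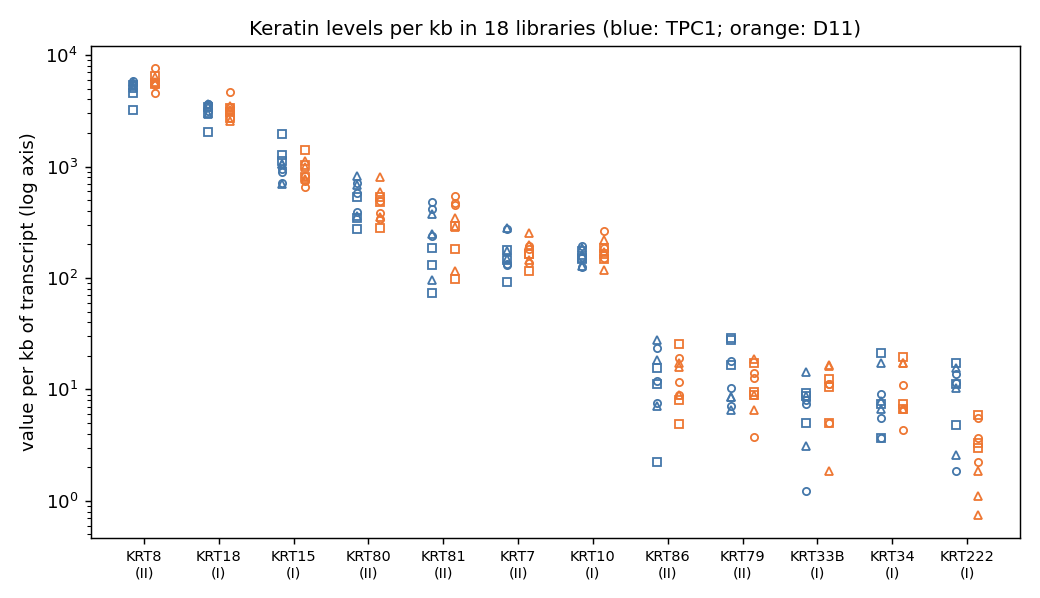
Level of each measured keratin per kb of its main transcript (log axis) in each of the 18 libraries, blue for TPC1 and orange for D11, with circles, squares and triangles for replicates 1, 2 and 3. KRT8 and KRT18 lay highest, and the 5 lowest keratins all had medians of 11.8 per kb or less.

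The mRNAs of the partner types were at unequal levels. KRT8 was 1.49 to 2.18 times KRT18 per kb, with a median of 1.67. Summed over the measured members, type II was 1.04 to 1.96 times type I per kb. This ratio was 1.19 ± 0.14 in TPC1 NT, 1.35 ± 0.19 in TPC1 NC and 1.55 ± 0.29 in TPC1 siDicer (SD, n = 3 each). D11 libraries held 1.45 ± 0.08, 1.54 ± 0.11 and 1.78 ± 0.19 in the same order. The group means had the same order in both lines while the ranges of neighbouring groups overlapped, and no test was made of this sum over chosen members. Within the same replicate number the siDicer ratio was above that of NC and of NT in 3 of 3 numbers of each line. The NC ratio was above that of NT in 3 of 3 numbers of TPC1 and 2 of 3 of D11, so a step was also seen without siDicer.

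The other keratin programmes were near 0. KRT19, a simple-epithelial keratin known as a tissue marker of papillary thyroid carcinoma, was 2 to 8 in every library. KRT17, an injury-induced keratin, reached at most 5, and none of the 5 stress-inducible keratins was measured. KRT5 (type II) and KRT14 (type I), the basal pair, reached at most 6 and 3, so KRT15, itself of type I, was measured without either. KRT1, the usual partner of KRT10, reached at most 4. None of the 9 root sheath keratins was measured, and 6 of them were at 0 in every library. Measured members made up 3 of 6 simple-epithelial, 1 of 3 basal, 3 of 14 suprabasal and other stratified, and 4 of 17 hair and nail keratins. Just outside the limit, KRT78 averaged 9.83 (6 to 16) and KRT2 averaged 6.17. KRT2, chosen after its values were seen, was 31 in TPC1 siDicer replicate 1 and 49 in D11 siDicer replicate 1, and 0 to 7 in the other 16 libraries.

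**Figure D2:**
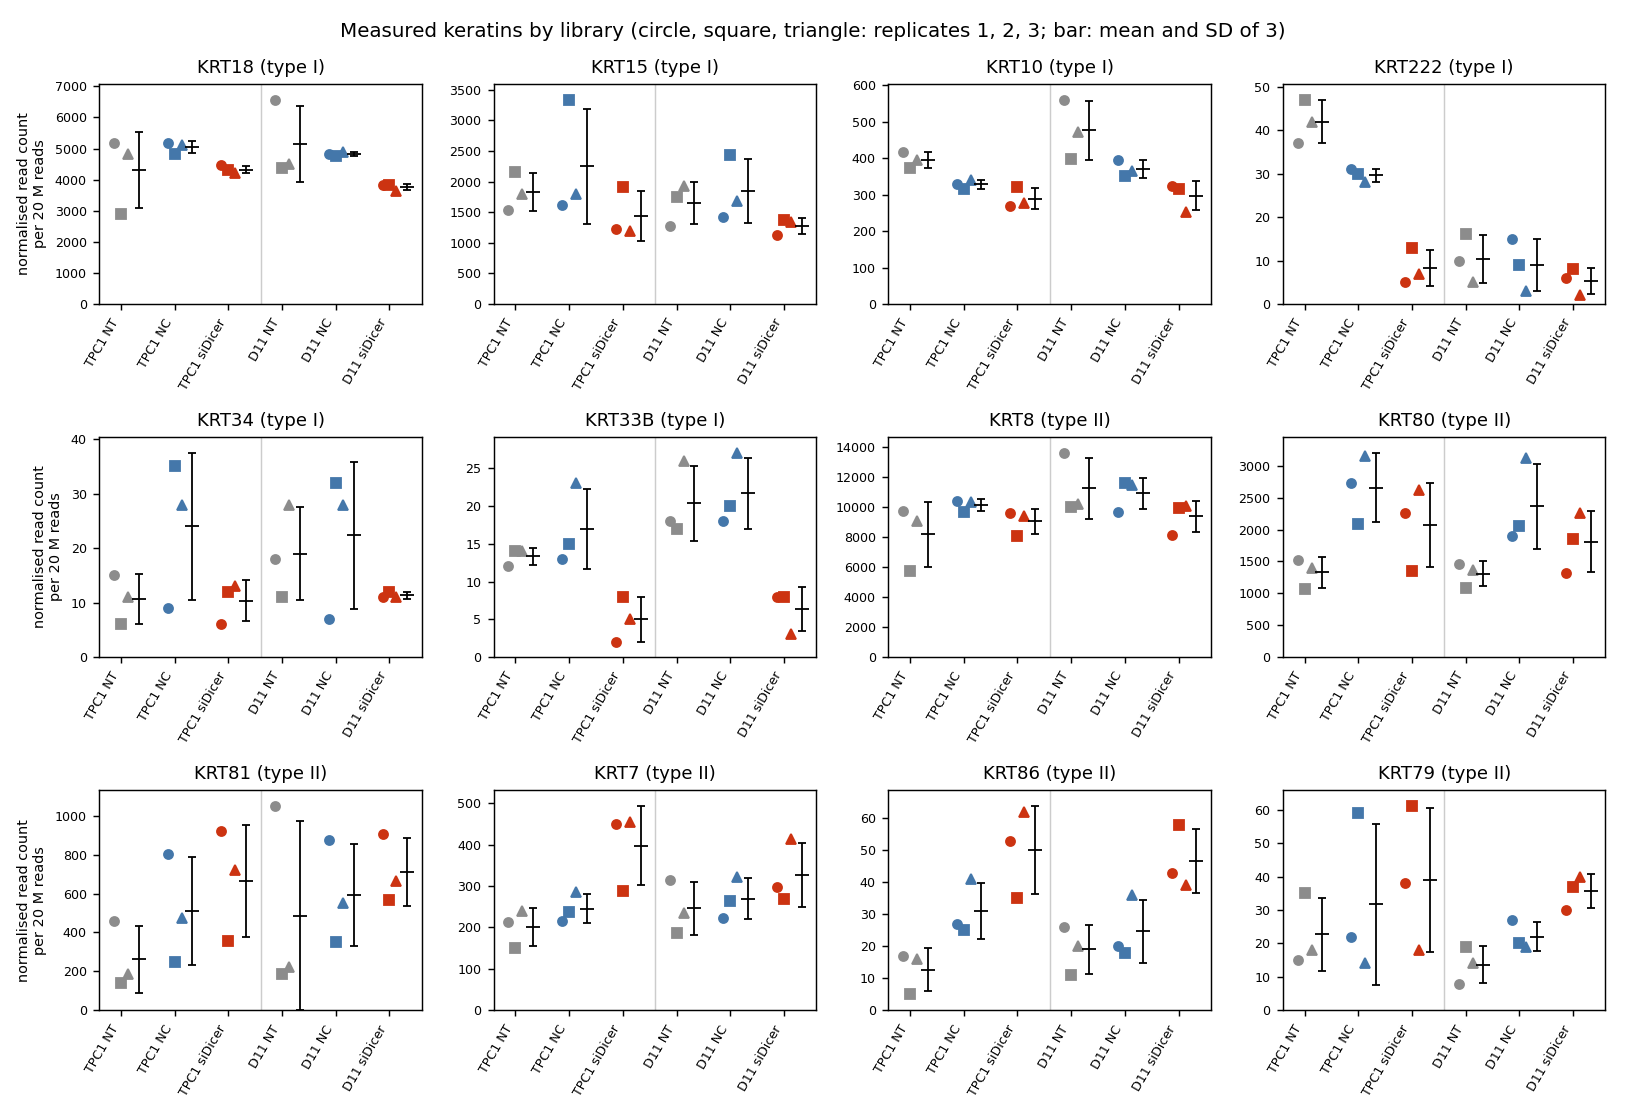
Normalised read count per 20 M reads (each axis from 0) of the 12 measured keratins in the 6 groups, with circles, squares and triangles for replicates 1, 2 and 3 and a bar for the mean and SD of 3 libraries. KRT33B lay lower in the siDicer libraries of both lines, KRT222 was 28 to 47 in TPC1 controls against 3 to 16 in D11 controls, and KRT81 was highest in replicate 1 of all 6 groups.

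The main question was which keratins changed when Dicer1 was knocked down. A gene was called at a Benjamini-Hochberg adjusted p under 0.05 over all genes tested and a fold change of at least 1.5, and log2 changes are on the log2(value + 1) scale, which understates low genes. In TPC1, limma called 3 of the 13 keratins tested, KRT7 higher and KRT33B and KRT222 lower, where 7.38% of all genes tested were called. In D11 it called 3 of 13, KRT86 and KRT79 higher and KRT33B lower, where 12% of all genes were called. With the replicate number as a block the same keratins were called, where 9.72% and 13.3% of all genes were. The 13th keratin tested was KRT78, which was not called in either line. KRT33B in both lines and KRT222 in TPC1 reached the tested minimum of 10 in 3 libraries only through the controls, so the filter favoured a fall in them. The other calls were KRT7 in TPC1 and KRT86 and KRT79 in D11.

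KRT33B, a type I hair keratin, fell in both lines. The TPC1 values were 12, 14 and 14 (NT), 13, 15 and 23 (NC) and 2, 8 and 5 (siDicer). Values in D11 were 18, 17 and 26 (NT), 18, 20 and 27 (NC) and 8, 8 and 3 (siDicer). All siDicer libraries lay below all controls of their line, with means of 5.0 ± 3.0 against 15.2 ± 4.0 in TPC1 and 6.33 ± 2.89 against 21.0 ± 4.4 in D11 (SD, n = 3 and 6). The log2 change was -1.54 (SE 0.36, limma adjusted p = 0.0193) in TPC1 and -1.66 (SE 0.33, limma adjusted p = 0.00414) in D11. These are small read numbers, and TPC1 siDicer replicate 1 and D11 siDicer replicate 3 were under the 2.58 and 3.57 that 3 reads are worth there. The TPC1 call was lost without siDicer replicate 1 (-1.11, adjusted p = 0.101), without siDicer replicate 3 (-1.61, adjusted p = 0.0765), and against NT alone (-1.39, adjusted p = 0.0994) or NC alone (-1.68, adjusted p = 0.0584), where the change was about as large. The D11 call held against either control alone and without any single library. KRT33B entered these fits too only through its controls, so the filter favoured its fall in them.

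KRT34, the neighbour of KRT33B with the shared stretch above, was not called. Its group means were 10.7 in NT, 24.0 in NC and 10.3 in siDicer in TPC1, and 19.0, 22.3 and 11.3 in D11. The log2 changes of -0.52 (SE 0.51) in TPC1 and -0.64 (SE 0.43) in D11 were within the spread of the controls, which ran from 6 to 35 in TPC1 and from 7 to 32 in D11.

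KRT222, a divergent type I member, fell in TPC1. It was 37, 47 and 42 (NT), 31, 30 and 28 (NC) and 5, 13 and 7 (siDicer), with no overlap between siDicer and control. The change was -2.05 on the log2 scale (SE 0.29, limma adjusted p = 0.0024), and it stayed called in each fit that left out 1 library and against NT or NC alone. KRT222 entered each of these fits only through its controls, so the filter favoured its fall in all of them. In D11 it was already low in the controls, 10, 16 and 5 in NT and 15, 9 and 3 in NC, against 6, 8 and 2 in siDicer, and the groups overlapped (log2 change -0.72, SE 0.53, limma adjusted p = 0.354), with -1.05 to -0.25 when 1 library was left out. D11 minus TPC1, the siDicer changes of KRT222 differed by 1.33 (SE 0.63), with limma adjusted p = 1.00 and the unadjusted value at 0.0486. KRT222 at chr17:40654665-40665181 shares exons with AC073508.2 (ENSG00000264058) on the same strand, which stood at 1641 to 2137 in the 18 libraries and changed by -0.02 (SE 0.08) in TPC1 and 0.02 (SE 0.10) in D11.

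KRT7, the type II keratin of ducts and glands, rose in TPC1. It was 213, 150 and 239 (NT), 215, 237 and 285 (NC) and 450, 287 and 455 (siDicer). The siDicer mean of 397 ± 96 (SD, n = 3) lay above the control mean of 223 ± 44 (SD, n = 6), and siDicer replicate 2 exceeded the highest control by only 2 units. The log2 change was 0.82 (SE 0.20, limma adjusted p = 0.0231), and the call was lost without siDicer replicate 1 (0.72, adjusted p = 0.128), without siDicer replicate 3 (0.71, adjusted p = 0.132) and against NC alone (0.67, adjusted p = 0.074). In D11, KRT7 was 315, 187 and 236 (NT), 223, 265 and 322 (NC) and 297, 268 and 414 (siDicer), and its change of 0.34 (SE 0.19) was not called. KRT7-AS, an antisense gene that shares exon positions with KRT7, moved alike: in TPC1 it was 89 to 153 in control and 243, 152 and 257 in siDicer (log2 change 0.83, SE 0.20, limma adjusted p = 0.0217), and in D11 its change was 0.36 (SE 0.19). KRT7-AS was chosen after its values were seen, and whether reads of the 2 strands were counted apart is not given in the sources used here.

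KRT86, a type II hair keratin, rose in D11 and lay in the same direction in TPC1. The D11 libraries had 26, 11 and 20 (NT), 20, 18 and 36 (NC) and 43, 58 and 39 (siDicer), so siDicer and control did not overlap (log2 change 1.12, SE 0.32, limma adjusted p = 0.0233). Without siDicer replicate 1, 2 or 3 it was no longer called (adjusted p = 0.0639, 0.104 and 0.0597), nor against NC alone. TPC1 libraries held 17, 5 and 16 (NT), 27, 25 and 41 (NC) and 53, 35 and 62 (siDicer). There the 3 groups stepped up, siDicer and NC overlapped, and the change against both controls was 1.34 (SE 0.50, limma adjusted p = 0.0969), while against NT alone it was 2.02 (SE 0.46, limma adjusted p = 0.043) and was called. It was also called with NT and NC as separate terms (SE 0.37, limma adjusted p = 0.0367) and with all 18 libraries in one fit (SE 0.36, limma adjusted p = 0.0144).

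KRT81, a close copy of KRT86, lies on the opposite strand inside the KRT86 gene. It was 459, 142 and 184 (NT), 804, 250 and 476 (NC) and 920, 355 and 722 (siDicer) in TPC1. The D11 values were 1049, 188 and 225 (NT), 875, 350 and 553 (NC) and 906, 566 and 663 (siDicer). The values overlapped widely, and the changes of 0.93 (SE 0.50) in TPC1 and 0.66 (SE 0.47) in D11 were not called. The ratio of KRT81 to KRT86 ranged from 9.76 to 43.8 over the libraries, so the 2 copies did not keep a fixed proportion.

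KRT79, a type II keratin of hair follicle ducts and sebaceous glands, rose in D11. It was 8, 19 and 14 (NT), 27, 20 and 19 (NC) and 30, 37 and 40 (siDicer), with no overlap (log2 change 1.03, SE 0.33, limma adjusted p = 0.039). The lowest siDicer library was 3 units above the highest control, and the call was lost when siDicer replicate 1, 2 or 3 (adjusted p = 0.0731, 0.109 and 0.152), NT replicate 2 or 3 (0.0512 and 0.0708) or NC replicate 3 (0.0522) was left out, against NC alone (0.68, adjusted p = 0.112), and with all 18 libraries in one fit. Values in TPC1 were 15, 35 and 18 (NT), 22, 59 and 14 (NC) and 38, 61 and 18 (siDicer), and its change of 0.54 (SE 0.48) was not called and ran from 0.14 to 0.99 when 1 library was left out. Replicate 2 was the highest library of each TPC1 group.

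Neither gene of the dominant pair was called. KRT8 was 9749, 5715 and 9056 (NT), 10378, 9681 and 10333 (NC) and 9624, 8083 and 9392 (siDicer) in TPC1. The log2 change was 0.00 (SE 0.17) and turned to -0.13 (SE 0.08) without NT replicate 2, the library with the low value. In D11, KRT8 was 13581, 9975 and 10178 (NT), 9692, 11569 and 11448 (NC) and 8157, 9911 and 10039 (siDicer) (-0.24, SE 0.12, limma adjusted p = 0.159).

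KRT18, the type I partner of KRT8, was 5172, 2908 and 4829 (NT), 5177, 4834 and 5129 (NC) and 4456, 4302 and 4209 (siDicer) in TPC1 (log2 change -0.09, SE 0.17). Without NT replicate 2, at 2908 the lowest of these, the change was -0.22 (SE 0.06, limma adjusted p = 0.0305), past the p threshold and under the fold minimum. D11 libraries held 6564, 4361 and 4519 (NT), 4829, 4770 and 4892 (NC) and 3818, 3827 and 3645 (siDicer). All 3 siDicer libraries of D11 lay below all 6 controls, 3763 ± 103 against 4989 ± 797 (SD), and the difference of -0.39 on the log2 scale (SE 0.12, limma adjusted p = 0.0297) passed the p threshold and was under the fold minimum. The line by siDicer difference of -0.31 (SE 0.21) was not called.

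KRT10, a type I keratin of differentiating epidermis, was 417, 374 and 396 (NT), 330, 316 and 341 (NC) and 269, 322 and 277 (siDicer) in TPC1. Values in D11 were 560, 397 and 472 (NT), 396, 350 and 365 (NC) and 324, 316 and 253 (siDicer). In each line NT was highest, the siDicer mean was lowest, and in D11 siDicer did not overlap with control. The D11 difference of -0.50 on the log2 scale (SE 0.16, limma adjusted p = 0.0377) was under the fold minimum, and against NT alone it was -0.67 (SE 0.16, limma adjusted p = 0.0154) and was called. In TPC1 the change was -0.32 (SE 0.12, limma adjusted p = 0.0934).

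KRT15 was 1534, 2161 and 1802 (NT), 1616, 3336 and 1800 (NC) and 1227, 1917 and 1193 (siDicer) in TPC1. The D11 libraries had 1273, 1755 and 1927 (NT), 1417, 2431 and 1691 (NC) and 1122, 1365 and 1335 (siDicer). The siDicer mean was the lowest of each line, while siDicer and control overlapped (-0.48, SE 0.23, limma adjusted p = 0.193 in TPC1, and -0.43, SE 0.17, limma adjusted p = 0.0876 in D11). Replicate 1 was the lowest library in 5 of the 6 groups. With the replicate number as a block the same changes had SE 0.12 in both lines and limma adjusted p = 0.023 and 0.0204, still under the fold minimum.

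Read by type, the 6 measured type I keratins all had a change below 0 in both lines, with medians of -0.50 in TPC1 and -0.57 in D11. Of these, KRT33B and KRT222 in both lines and KRT34 in TPC1 reached the tested minimum only through the controls. The filter therefore favoured their falls in this count. The 6 type II keratins had a change above 0 in 6 of 6 cases in TPC1 (median 0.68) and in 5 of 6 in D11 (median 0.50), KRT8 being the exception. Over all genes tested the median was -0.04 in each line. Of these 24 values, 6 passed the call, and the sign of the small ones depended on the control: against NT alone KRT18 was above 0 in TPC1, and against NC alone KRT80 was below 0 in both lines and KRT8 below 0 in TPC1 as well. KRT222 was not tested against a single control in D11 because too few values reached 10. NC against NT gave type II changes above 0 in 6 of 6 cases in TPC1 (median 0.67) and 5 of 6 in D11 (median 0.51). A type II rise was therefore not particular to siDicer. Type I was above 0 there in 4 of 6 and 3 of 6 cases. With NC alone as the control of siDicer, type II was above 0 in 4 of 6 cases in each line (medians 0.41 and 0.30), with none called. Type I was then below 0 in 6 of 6 cases in TPC1 and 5 of 5 in D11.

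**Figure D3:**
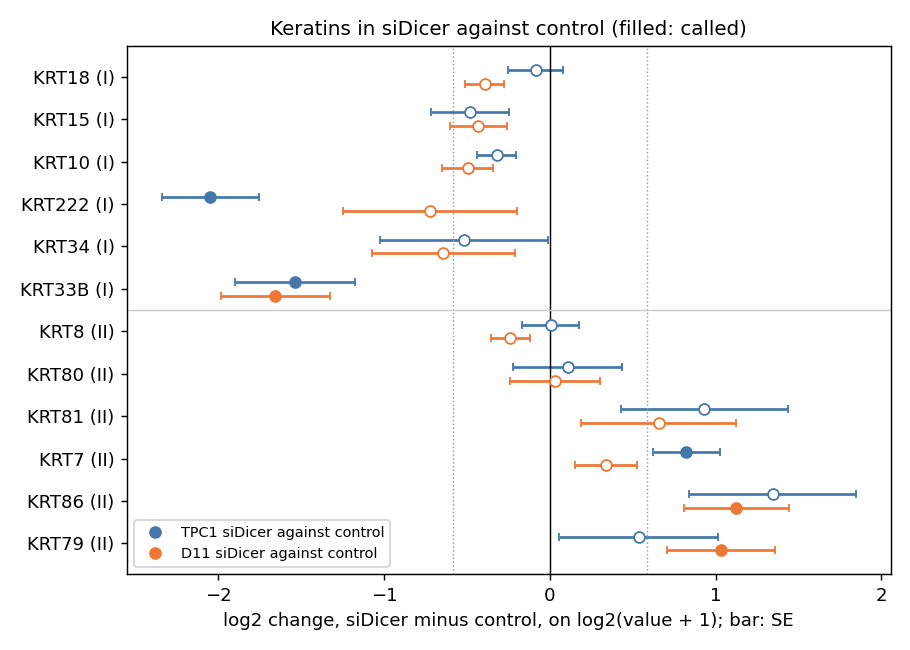
Log2 change with its SE of each measured keratin in siDicer against control, blue for TPC1 and orange for D11, on the log2(value + 1) scale, with type I above the grey line and type II below it and dotted lines at a fold change of 1.5. Filled points are called, and all 12 type I points lie left of 0, with KRT33B at -1.54 and -1.66.

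The step from NT to NC was examined, since the control group held both. NC differed from NT by the transfection and by the control siRNA together, and these cannot be told apart. limma called none of the keratins tested in either line, 13 in TPC1 and 12 in D11, where 0.111% and 0.35% of all genes were called. An unadjusted p under 0.05 was found for 3 keratins in TPC1 (KRT80, KRT86 and KRT10) and 2 in D11 (KRT80 and KRT10), and voom on recovered reads called none in either line. With replicate number as a block, KRT80, KRT81 and KRT86 were called higher in TPC1 NC and KRT80 in D11 NC, where 3.14% and 1.75% of all genes were called.

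KRT80 gave the clearest step from NT to NC. It was 1527, 1062 and 1404 in TPC1 NT against 2730, 2084 and 3160 in NC, and 1468, 1085 and 1368 in D11 NT against 1899, 2059 and 3130 in NC. No NC library overlapped with NT in either line. The log2 change was 0.99 in TPC1, with SE 0.18 and limma adjusted p = 0.0968, or SE 0.09 and limma adjusted p = 0.000408 with the block. The D11 values were 0.83, with SE 0.19 and limma adjusted p = 0.12, or SE 0.14 and limma adjusted p = 0.0181 with the block. The siDicer libraries, at 2261, 1346 and 2628 in TPC1 and 1312, 1858 and 2265 in D11, spread across both controls. The log2 change with siDicer was therefore 0.60 (SE 0.25) against NT and -0.39 (SE 0.26) against NC in TPC1, and 0.45 (SE 0.19) and -0.38 (SE 0.22) in D11, none of them called.

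KRT86 in TPC1 was higher in all NC than in all NT libraries (1.35, SE 0.46, limma adjusted p = 0.339, or SE 0.35 and 0.0476 with the block). KRT81 had a change of 1.00 in TPC1 NC (SE 0.50, limma adjusted p = 0.528, or SE 0.14 and 0.00282 with the block) and 0.64 in D11 NC (limma adjusted p = 0.652, or 0.178 with the block). KRT10 was lower in all NC than in all NT libraries of each line, by -0.26 (SE 0.11) in TPC1 and -0.35 (SE 0.15) in D11, and was not called. Within the same replicate number KRT81 stepped up from NT to NC to siDicer in all 3 numbers of TPC1 and in replicates 2 and 3 of D11, while D11 NT replicate 1 was the highest of the 18 libraries.

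**Figure D4:**
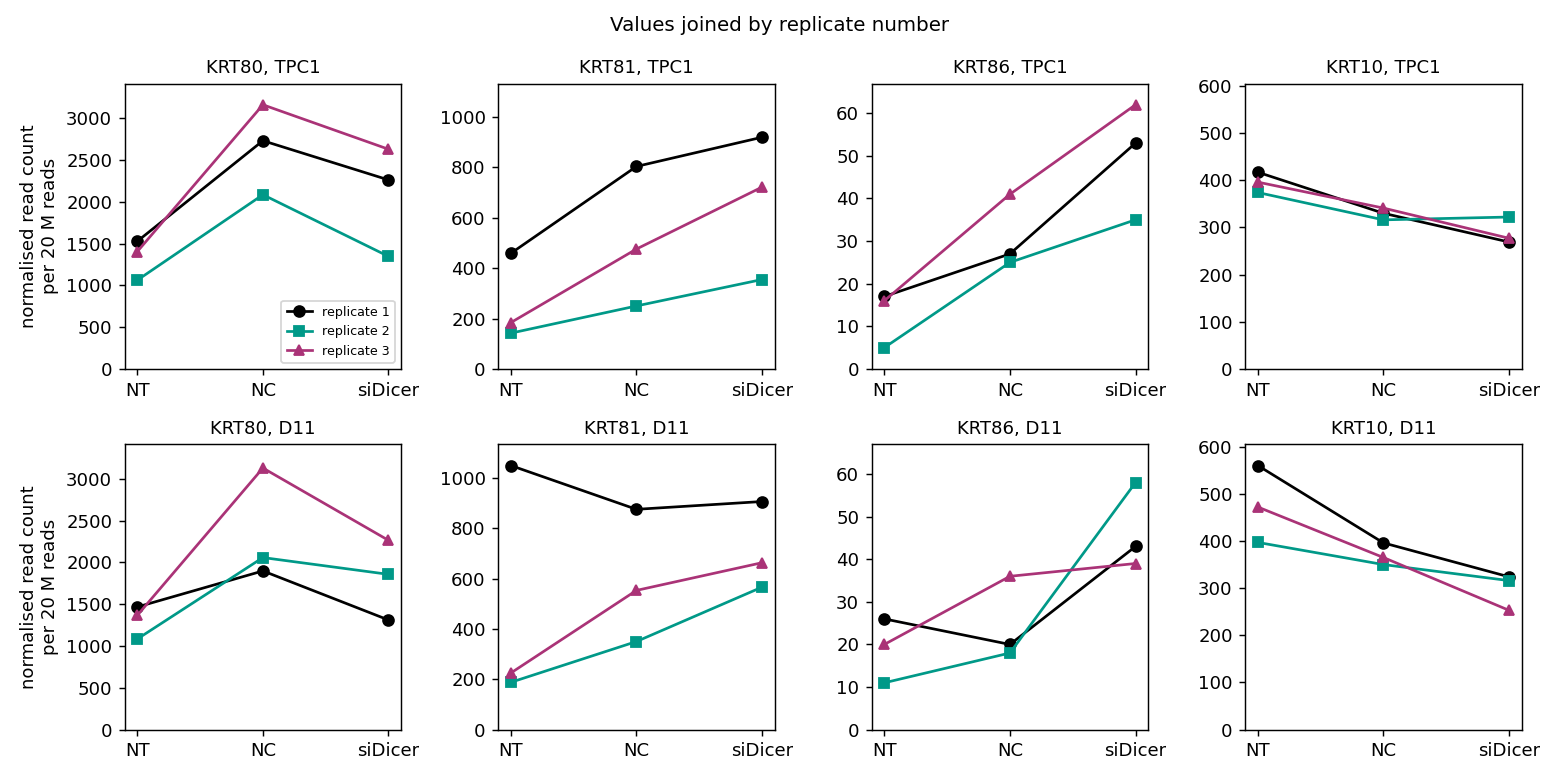
Normalised read count per 20 M reads of KRT80, KRT81, KRT86 and KRT10 in NT, NC and siDicer, joined by replicate number, for TPC1 (top) and D11 (bottom). KRT80 lay higher in NC than in NT for every number, and KRT81 was highest in replicate 1 and lowest in replicate 2 of all 6 groups.

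The replicate number marked a shared level for KRT81 across both lines: replicate 1 was the highest and replicate 2 the lowest of the 3 in each of the 6 groups. KRT15 was highest in replicate 2 in 5 of 6 groups, and KRT7 was highest in replicate 3 in 5 of 6. What a number stands for is not in the labels.

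D11 was compared with TPC1 in the 12 control libraries to ask what the loss of 1 Dicer1 allele went with, and since D11 is 1 clone, the allele and the clone cannot be told apart. Of 13 keratins tested, 1 was called, KRT222, where 1.02% of all genes were called. It was 28 to 47 in TPC1 and 3 to 16 in D11, 35.8 ± 7.5 against 9.67 ± 5.20 (SD, n = 6 each), a difference of -1.94 on the log2 scale (SE 0.32, limma adjusted p = 0.0045). The values did not overlap. With only NT (-2.04, adjusted p = 0.146) or only NC (-1.83, adjusted p = 0.455) libraries in the fit, 3 against 3, it was not called. KRT8 (0.29, SE 0.13), KRT10 (0.21, SE 0.09) and KRT33B (0.45, SE 0.21) were higher in D11 at an unadjusted p under 0.05 only, with limma adjusted p of 0.475, 0.444 and 0.499. The other measured keratins differed by -0.47 to 0.45 and overlapped.

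Whether the siDicer change differed between the lines was tested over all 18 libraries. No keratin was called of 13 tested (limma, 1 at an unadjusted p under 0.05, KRT222), where 0% of all genes were called, and voom on recovered reads called none. For KRT33B, called in both lines, the difference was -0.12 (SE 0.50). For KRT7 it was -0.49 (SE 0.29), for KRT86 -0.22 (SE 0.51) and for KRT79 0.50 (SE 0.59), so these data do not show that the keratins called in 1 line only changed there alone.

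Genes that work with keratins were taken from lists of filament, junction and regulator genes, whose counts stand beside the 7.38% of all genes called in TPC1 and 12% in D11. Of 7 other intermediate filament genes tested, none was called in either line, and their median log2 change was -0.22 in TPC1 and -0.35 in D11. Vimentin (VIM), the mesenchymal filament protein and the most abundant of them, was 25213 ± 2449 in TPC1 siDicer against 30787 ± 2405 in control and 25484 ± 1071 against 33144 ± 2346 in D11 (-0.29, SE 0.09, limma adjusted p = 0.0528, and -0.38, SE 0.08, limma adjusted p = 0.00698, under the fold minimum). With the replicate number as a block, VIM in TPC1 had SE 0.09 and limma adjusted p = 0.0412, still under the fold minimum. In D11, LMNB1, a nuclear lamin, moved by -0.52 (SE 0.11, limma adjusted p = 0.00682) and SYNC, a filament-linking protein, by 0.41 (SE 0.11, limma adjusted p = 0.0174), both under the fold minimum.

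Desmosomes and hemidesmosomes anchor keratin filaments to the cell membrane. Of the desmosome genes, 7 of 14 were tested in TPC1 and 6 in D11, and 1 was called in each line (all genes 7.38% and 12%), plakoglobin (JUP). JUP was 726 ± 180 in control and 1246 ± 104 in siDicer of TPC1 (0.81, SE 0.17, limma adjusted p = 0.0133), and 701 ± 174 and 1154 ± 153 in D11 (0.75, SE 0.18, limma adjusted p = 0.0119). The siDicer and control libraries did not overlap in either line. Desmoplakin (DSP), the plakin that ties keratins to desmosomes, averaged under 10. PKP3 and PERP were not called (-0.39, SE 0.17 and -0.14, SE 0.09 in D11). Of 7 plakin and hemidesmosome genes tested, the laminin receptor chain ITGA6 was called lower in TPC1 (-0.64, SE 0.09, limma adjusted p = 0.00181), while in D11 its change of -0.58 (SE 0.16, limma adjusted p = 0.0181) was just under the fold minimum. The plakin DST had 0.69 (SE 0.26) and COL17A1 -0.24 (SE 0.18) in D11, neither called.

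Of 10 epithelial transcription factors tested, 1 was called in each line, a share near that of all genes (7.38% and 12%). It was TFAP2A, which binds the promoters of several keratin genes. It was 775 ± 52 in control and 1272 ± 78 in siDicer of TPC1 (0.71, SE 0.09, limma adjusted p = 0.00108), and 700 ± 48 and 1211 ± 201 in D11 (0.78, SE 0.12, limma adjusted p = 0.000875), with no overlap in either line. GRHL1, named after its values were seen, was called in TPC1 only with the replicate block (-0.97, limma adjusted p = 0.0777, or 0.0391 with the block). SOX9 and OVOL2 were not called in D11 (0.53, SE 0.18 and -0.33, SE 0.14). With the block SOX9 in D11 went from limma adjusted p = 0.0525 to 0.0373 (SE 0.17) and stayed under the fold minimum. The epidermal factors TP63, GRHL2, GRHL3, OVOL1, EHF and ZNF750 averaged under 10. Of 8 AP-1 factors, which act on many keratin promoters, none was called in TPC1 and JUND in D11 (0.68, SE 0.20, limma adjusted p = 0.0303). FOSL2 (0.49, SE 0.14, limma adjusted p = 0.0234) was under the fold minimum and FOSL1 (-0.28, SE 0.12) was not called there.

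Of 15 cornified envelope genes in the table only 3 were tested, and 12 averaged under 10. Filaggrin (FLG), which bundles keratin filaments in the epidermis, was the exception, at 20014 to 99721 per library. It was 34868 ± 8762 in control and 67718 ± 10813 in siDicer of D11, without overlap (0.99, SE 0.21, limma adjusted p = 0.00527), and 40943 ± 13470 and 76478 ± 32813 in TPC1. The TPC1 change was not called (0.85, SE 0.33, limma adjusted p = 0.105) and was called with the replicate number as a block (SE 0.18, limma adjusted p = 0.0115). Replicate 2 was the lowest of each TPC1 group (24387, 31207 and 38943 in NT, NC and siDicer), and siDicer lay above both controls within each number. CDSN and TGM1 were not called in D11 (0.49, SE 0.34 and -0.07, SE 0.33). Of 15 genes of keratin binding and turnover, 14 averaged at least 10, and limma called 2 of these in each line, both lower, where 7.38% and 12% of all genes were called. SFN, which averaged under 10 and reached the tested minimum in D11 only through the controls, was not counted. CASP6, the caspase that cuts KRT18, fell by 1.01 on the log2 scale in TPC1 (SE 0.16, limma adjusted p = 0.00341) and by 1.13 in D11 (SE 0.12, limma adjusted p = 0.000181). FAM83D, a mitotic member of the FAM83 family, fell by 0.71 (SE 0.17, limma adjusted p = 0.0197) and 0.86 (SE 0.10, limma adjusted p = 0.000248).

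Keratin pseudogenes, copies without a function as a filament protein, had 147 rows, of which 6 averaged at least 10 and 44 were at 0 throughout. KRT8P12 was the highest with a mean of 199, followed by KRT18P12 (32.7) and KRT87P (22.2). Of 7 pseudogenes tested none was called in either line, KRT18P12 being called in TPC1 with the replicate block (0.68, limma adjusted p = 0.195, or 0.0464 with the block), and these 3 had changes in D11 of -0.44 (SE 0.18), 0.54 (SE 0.29) and 0.33 (SE 0.33). The single antisense row with a numbered AS suffix, KRT73-AS1, was at 0 in every library.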

How the data were processed

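Stranded mRNA libraries of 18 samples were sequenced. Per the study's methods and the submitters' processing notes, the authors aligned reads to GRCh38 with STAR 2.5.3a, assigned them to Ensembl release 90 genes with HTSeq 0.9.1 and brought every library to 20 M aligned reads. The deposited values are whole numbers rounded up from that scaling, here treated as a normalised score and not as counts, so the edgeR test foreseen for counts was not run. The step between values gave the depth of each library. Values were fitted as log2(value + 1) with limma 3.58.1 in R 4.3.3 (trend), over genes with at least 10 in at least 3 libraries of a fit, with Benjamini-Hochberg adjustment over all genes tested. The test was checked on simulated data drawn independently for each library, so that check did not cover a level shared by replicate number. p-values measure the spread between libraries, since the labels do not say whether replicates were separate cultures.

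All measured keratins are named, with values per library for those with a mean of at least 100 or a call. From each partner list, 3 genes are named, those lowest in adjusted p in D11 siDicer, except that a few genes of these lists and of the marker lists are not reported here. The keratins, the lists and the tests were chosen with earlier results of these data known. The 55 keratins were matched to GENCODE release 44 by identifier, and levels per kb used the main (MANE) transcript. In D11 all 9 pairs of libraries with the same replicate number had deviations from their group means correlated above 0.1 (0.108 to 0.504), so the number was taken to pair them. In TPC1 8 of 9 did (0.0994 to 0.542), and values with the replicate number as a block are printed beside the results of either line where the call or the side of the p threshold changed.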

Additional observations from a re-analysis of the deposited data

Results flagged for a closer look

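In the control groups of 6 libraries, 5 of the 24 keratin groups examined (12 keratins in 2 lines) held a library whose gap to its nearest neighbour was large against the range of the group (Dixon's test, critical value 0.625), and chance gives about 1 in 20. Among the TPC1 controls, NT replicate 2 was low for both partners of the simple-epithelial pair, with KRT8 at 5715 (gap 0.717 of the range) and KRT18 at 2908 (gap 0.847 of the range). KRT15 was high in TPC1 NC replicate 2, at 3336 (gap 0.652 of the range). KRT33B was high in TPC1 NC replicate 3, at 23 (gap 0.727 of the range). Among the D11 controls, KRT18 was high in NT replicate 1, at 6564 (gap 0.759 of the range).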

How the results depend on the processing

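TMM and RLE scaling, pseudocounts of 0.1 and 10 and voom on recovered reads left the 6 keratin counts within 1.5 times of those given. A mean of at least 100 left 1 keratin called in TPC1 siDicer, 0 in D11 siDicer and 0 in D11 against TPC1. Without a filter on low values KRT79 was lost in D11 and KRT2 was called in its place. Without a fold minimum 5 were called in D11 siDicer. NC alone as the control left 1 called in each line (KRT222 in TPC1, KRT33B in D11), and D11 against TPC1 gave 0 with NT alone or NC alone. With the siDicer libraries only it also gave 0, but KRT222 was then too low to be tested. Groups from the titles gave 0 in both siDicer comparisons. With any 1 library left out there were 1 to 3 calls in TPC1 siDicer and in D11 siDicer. Replicate pairing was tested with a replicate block, which gave 3 calls for NC against NT in TPC1 and 1 in D11, in place of 0, and changed no other keratin call. KRT86 was called in TPC1 siDicer with NT and NC as separate terms and with all 18 libraries in one fit, and KRT79 was not called in D11 with the latter. The sign turned for values near 0: against NC alone for KRT8 in TPC1 (-0.17) and KRT80 in TPC1 (-0.39) and D11 (-0.38), against NT alone for KRT18 in TPC1 (0.051), and with 1 library left out for KRT8 in TPC1 (-0.13 to 0.083), KRT80 in TPC1 (-0.090 to 0.39) and KRT80 in D11 (-0.15 to 0.25). The cause of these differences was not tested. At this depth changes of keratins near 10 units rest on few reads.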
